A study of Mus musculus with 57 samples.

Results

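The genes described here encode 3 nucleoplasmins (Npm1, Npm2 and Npm3) and 7 proteins that build and run the nucleolus (Ncl, Fbl, Nop56, Nop58, Dkc1, Nop10 and Ubtf). They were taken by name: each was the row of the deposited expression table whose Ensembl identifier belongs to one of these symbols. All 10 were found among 59119 rows, and all 10 passed the filter on low values in every main test. Levels were read in mouse oocytes and preimplantation embryos as FPKM, fragments per unit of transcript length scaled to the fragments mapped in each library, which sets the level of a gene relative to its own length and to the rest of its library.

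The nucleolus is where ribosomal RNA is transcribed by RNA polymerase I, modified, cleaved and joined with ribosomal proteins. Modification is guided by small nucleolar RNAs (snoRNAs) in particles of a box C/D class, which methylate, and a box H/ACA class, which convert uridine to pseudouridine. In the fully grown mouse oocyte and the zygote the nucleolus is a compact body that makes little or no ribosomal RNA, and working nucleoli are rebuilt after the embryo's own genome is switched on. Nucleoplasmins are histone chaperones, and Npm2 is the form characteristic of the oocyte.

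The series holds 57 samples in 18 groups. Wild-type C57BL/6 material covered 8 stages with 2 columns each in the table: oocytes at metaphase of meiosis II (MII), zygotes, embryos of the 2-cell stage taken early (E2-cell) or late (L2-cell), embryos with 4 or 8 cells, morulae and blastocysts. BDF1 embryos were collected 14, 17 and 20 hours after fertilization, with 2 columns per time. BDF1 embryos with MT2Mm, a long terminal repeat promoter of the retrovirus MERVL, targeted by Cas9 (genotype MT2Mm KO, labelled ko) and wild-type embryos (ctrl) came from mice aged 6 to 8 weeks, with 3 samples each late in the 1-cell stage (Late1c) and early in the 2-cell stage (Early2c). BDF1 embryos with a knockdown of the lncRNA LncR-3363 by an antisense oligonucleotide formed the groups KD-1cell (4 samples) and KD-2cell (1 sample), and wild-type Ctrl embryos formed another (4 samples); the stage at which these were collected is not given. For both experiments MII oocytes received an injection of 5 to 10 pL, with the oligonucleotide at 20 uM, or with 100 ng/uL of Cas9 mRNA beside 150 ng/uL of guide; whether the controls were injected is not given. How many copies of MT2Mm were cut in a ko embryo is not given, and no row of the table carries the name of LncR-3363 or MT2Mm, so the targets themselves were not analysed here.

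The table gives no read counts, and the depth behind each value is unknown. FPKM sums per column ran between 311543 and 720832, 10704 to 12892 rows reached 1 FPKM, and protein-coding genes held 21.6% to 66.0% of the sum. Columns of later stages may join several of the labelled samples, and nothing says that replicates came from separate animals or cultures, so p-values measure only the spread between these columns, which may be technical. In pooled embryos a lower level can mean fewer cells with a transcript or less RNA per cell, and these cannot be told apart. Oocyte identity was clear from 12 oocyte markers, which summed to between 4637 and 4742 FPKM in MII and between 7.53 and 8.55 FPKM in blastocysts. Of 12 cumulus and granulosa cell markers only 1 reached 1 FPKM in MII, zygote and E2-cell columns, where the list summed to between 5.68 and 8.88 FPKM, but 4 reached it at 20 hours after fertilization.

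A single column bears on several of the stage results. Zygote replicate 1 had 35.7 FPKM of Npm2 and 2.07 FPKM of Nop56, while zygote replicate 2 had 713 FPKM of Npm2 and 29.1 FPKM of Nop56. Among 5751 protein-coding genes with at least 5 FPKM in replicate 2, these gaps of -4.30 and -3.53 on the log2 scale ranked lowest and 3rd lowest, while the middle gene differed by -0.14 and the 5th to 95th percentiles spanned -1.73 to 0.73. Replicates 1 and 2 had 8.76 and 19.2 FPKM of Dkc1 and 19.5 and 10.0 FPKM of Npm3. Because all 8 stages share a model, this gap widens the error of Npm2 and Nop56 at every step. Changes are therefore also given from a model without that column. That model tested 21272 rows instead of 19692, since its smallest group held 1 column. The shares of all rows given below are not from it.

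Across the stages Npm1 and Npm2 exchanged places as the leading nucleoplasmin. Npm1, nucleophosmin, an abundant protein of the granular outer part of the nucleolus, had 138 and 137 FPKM in MII oocytes, 133 and 184 in zygotes, 227 and 231 in E2-cell, 179 and 174 in L2-cell, 659 and 643 in 4-cell, 959 and 955 in 8-cell, 1173 and 1207 in morula and 588 and 613 in blastocyst columns. Its columns stood highest in the morula, and every column of the 4-cell stage and later lay above every earlier one. Npm2, the oocyte nucleoplasmin, had 953 and 650.4 FPKM in MII oocytes, 35.7 and 713 in zygotes, 375 and 368 in E2-cell, 99.5 and 98.998 in L2-cell, 46.5 and 48.5 in 4-cell, 30.3 and 26.8 in 8-cell, 12.9 and 10.3 in morula and 0.926 and 0.795 in blastocyst columns. Apart from zygote replicate 1 and the overlap of MII with zygote replicate 2, each stage lay wholly below the stage before it. Npm3, a nucleoplasmin that binds Npm1, had 7.51 and 9.83 FPKM in MII oocytes, 19.5 and 10.0 in zygotes, 16.6 and 10.8 in E2-cell, 17.1 and 15.4 in L2-cell, 21.8 and 18.6 in 4-cell, 30.7 and 27.2 in 8-cell, 34.8 and 37.6 in morula and 40.4 and 36.0 in blastocyst columns. It stayed far below Npm1 at every stage, and its zygote columns lay so far apart that they enclosed all E2-cell and L2-cell columns.

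Within the series of 8 stages the nucleolar proteins were low in the oocyte and high from the 4-cell stage on. Ncl, nucleolin, which binds nascent ribosomal RNA, had 9.83 and 11.8 FPKM in MII oocytes, 9.37 and 15.7 in zygotes, 7.01 and 6.69 in E2-cell, 17.5 and 11.7 in L2-cell, 90.6 and 83.8 in 4-cell, 64.3 and 59.8 in 8-cell, 88.1 and 85.3 in morula and 49.8 and 48.6 in blastocyst columns. The E2-cell columns were its lowest. Ubtf, the upstream binding factor that holds ribosomal DNA open for RNA polymerase I, had 2.15 and 1.93 FPKM in MII oocytes, 1.03 and 1.66 in zygotes, 1.20 and 1.70 in E2-cell, 42.5 and 40.9 in L2-cell, 89.8 and 91.3 in 4-cell, 86.4 and 83.4 in 8-cell, 71.8 and 65.2 in morula and 27.3 and 29.5 in blastocyst columns. No Ubtf column reached 3 FPKM up to E2-cell, and none lay under 25 FPKM from L2-cell on.

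Of the box C/D proteins, Fbl, fibrillarin, the methyltransferase of the particle, started lowest and Nop56 highest. Fbl had 0.965 and 1.26 FPKM in MII oocytes, 0.521 and 0.705 in zygotes, 1.42 and 1.38 in E2-cell, 11.6 and 13.1 in L2-cell, 36.9 and 36.2 in 4-cell, 37.0 and 39.0 in 8-cell, 39.8 and 40.6 in morula and 26.9 and 24.7 in blastocyst columns. Nop56, a core protein that spans the particle, had 28.9 and 21.8 FPKM in MII oocytes, 2.07 and 29.1 in zygotes, 13.8 and 13.4 in E2-cell, 30.2 and 32.2 in L2-cell, 63.4 and 55.9 in 4-cell, 84.3 and 89.8 in 8-cell, 69.6 and 66.2 in morula and 61.9 and 66.9 in blastocyst columns. Its partner Nop58 had 6.59 and 6.12 FPKM in MII oocytes, 4.24 and 6.18 in zygotes, 2.91 and 2.34 in E2-cell, 13.9 and 17.3 in L2-cell, 30.4 and 30.0 in 4-cell, 28.9 and 29.3 in 8-cell, 37.5 and 40.9 in morula and 19.3 and 19.9 in blastocyst columns. All 3 had their E2-cell columns below their L2-cell columns with no overlap, but the MII columns of Nop56 lay near its L2-cell level and those of Fbl did not.

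Both box H/ACA proteins had L2-cell columns above their E2-cell columns with no overlap. Dkc1, dyskerin, the pseudouridine synthase of the particle, had 17.4 and 16.7 FPKM in MII oocytes, 8.76 and 19.2 in zygotes, 11.1 and 12.0 in E2-cell, 33.3 and 29.9 in L2-cell, 47.6 and 42.2 in 4-cell, 47.7 and 49.5 in 8-cell, 62.5 and 61.3 in morula and 38.0 and 41.4 in blastocyst columns. Nop10, its small partner, had 19.1 and 13.5 FPKM in MII oocytes, 13.7 and 9.31 in zygotes, 6.45 and 7.72 in E2-cell, 19.3 and 21.8 in L2-cell, 40.0 and 42.7 in 4-cell, 46.5 and 41.2 in 8-cell, 43.9 and 45.3 in morula and 60.8 and 57.1 in blastocyst columns. Dkc1 was highest in the morula, whereas Nop10 was highest in the blastocyst, the only member besides Npm3 with a blastocyst column above all earlier ones.

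**Figure D1:**
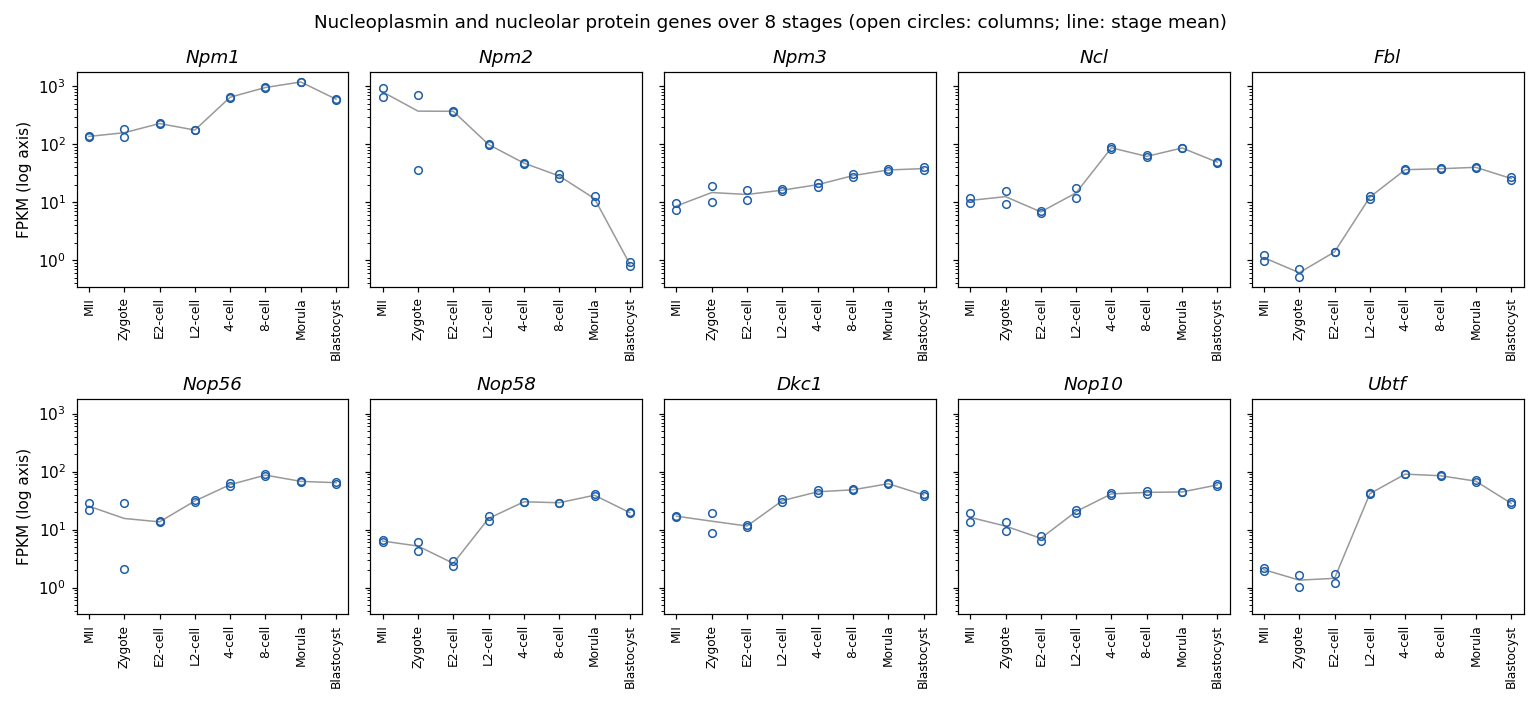
FPKM on a log axis for each gene over 8 stages, with an open circle for each of 2 columns per stage and a line through the stage means. Npm2 descends while the other 9 climb between E2-cell and morula, and zygote replicate 1 stands apart for Npm2 and Nop56.

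At fertilization little was called. Between zygote and MII columns 3.76% of 19692 rows passed the test (1.73% higher, 2.03% lower), and of the members only Fbl fell (log2 change -0.53, SE 0.13, limma adjusted p = 0.045), with means of 0.613 ± 0.130 FPKM in zygotes and 1.11 ± 0.210 FPKM in MII oocytes (SD, n = 2). At an unadjusted p under 0.05 there were 5. The call of Fbl was lost without zygote replicate 1 (-0.41, limma adjusted p = 0.13) and without MII replicate 2 (-0.40, limma adjusted p = 0.18). Without zygote replicate 1 Npm1 was instead higher in zygotes (0.42, limma adjusted p = 0.039), and Npm2 and Nop56 differed from MII by -0.14 and 0.21. Without zygote replicate 2, 7 members were called, among them Npm2 at -4.44 and Nop56 at -3.32. In the columns of zygote and MII that share a tag in their names, whose meaning is not given, 2 members were called: Npm1 at 0.42 and Nop10 at -0.996.

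At the E2-cell stage the members divided. Between E2-cell and zygote columns 44.1% of rows were called, 17.9% higher and 26.2% lower. Scaling the columns to equal sums of coding genes gave 4589 higher and 4172 lower rows. Fbl rose (0.78, SE 0.13, adjusted p = 0.00048, limma) and so did Npm1 (0.54, SE 0.15, adjusted p = 0.014, limma), whereas Nop58 (-0.85, SE 0.17, adjusted p = 0.0016, limma), Ncl (-0.79, SE 0.22, adjusted p = 0.015, limma) and Nop10 (-0.64, SE 0.20, adjusted p = 0.02, limma) fell. With equal coding sums the calls of Ncl (-0.59, limma adjusted p = 0.061) and Nop10 (-0.45, limma adjusted p = 0.074) were lost, with the median of ratios that of Nop10 (-0.55, limma adjusted p = 0.065), and with the 2 groups alone those of Nop58 (limma adjusted p = 0.079), Npm1 (0.18), Ncl (0.12) and Nop10 (0.15). Of the other 5, none was called in the model with all columns. Without zygote replicate 1, Npm2 (-0.94), Nop56 (-1.07) and Dkc1 (-0.71) were lower at E2-cell, and the change of Nop10 was smaller (-0.38). Without zygote replicate 2, the setting that also restricts the comparison to columns of 1 tag, Npm2 and Nop56 were higher at E2-cell by 3.36 and 2.46 and Dkc1 by 0.38, and Ncl lost its call (-0.43, limma adjusted p = 0.097). Without E2-cell replicate 1 the calls of Ncl (limma adjusted p = 0.052) and Nop10 (limma adjusted p = 0.13) were lost, and without E2-cell replicate 2 those of Ncl (limma adjusted p = 0.073) and Npm1 (limma adjusted p = 0.061). For Npm2, Nop56 and Dkc1 the direction of this step therefore depends on which zygote column is used.

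Genes of the surrounding pathway were taken as lists: 16 partners and assembly factors of the snoRNA particles, 16 RNA polymerase I factors, 30 proteins of the small subunit processome, 34 assembly factors of the large subunit and 18 other histone chaperones. At E2-cell against zygote, 19 of 30 processome genes fell and 1 rose, and 19 of 34 large subunit factors fell and 5 rose. Without zygote replicate 1 these counts were 25 and 1 for the processome and 26 and 5 for the large subunit factors, and without zygote replicate 2 they were 15 and 7, and 16 and 9. Utp4, a processome protein, averaged 10.5 FPKM in E2-cell and 50.3 FPKM in zygote (log2 change -2.13, limma adjusted p = 1.9e-05) and Ddx56, a helicase of large subunit assembly, 11.6 FPKM in E2-cell and 65.5 FPKM in zygote (log2 change -2.42, limma adjusted p = 7.8e-07). Of the RNA polymerase I factors 7 of 16 fell and 2 rose, with Taf1b, a subunit of the promoter selectivity factor, at 5.60 in E2-cell and 37.3 in zygote (-2.62) and Taf1a of the same factor at 36.9 in E2-cell and 148 in zygote (-1.98). Of the snoRNA particle partners 6 of 16 fell and 3 rose, against 4 and 4 with equal coding sums, and Nhp2, a core box H/ACA protein, had 9.20 in E2-cell and 27.3 in zygote (-1.49). Of the histone chaperones 8 of 18 rose and 6 fell (7 and 8 without zygote replicate 1), with Ssrp1, a subunit of FACT, at 40.2 in E2-cell and 16.9 in zygote (1.45).

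Between E2-cell and L2-cell most of the nucleolar proteins rose. Of all rows 68.7% were called at this step, 31.1% higher and 37.6% lower, and the middle row changed by -0.10, whereas the median member changed by 1.29. At this step 6 members rose. Ubtf averaged 41.7 ± 1.13 FPKM in L2-cell and 1.45 ± 0.355 FPKM in E2-cell columns (log2 change 4.45, SE 0.17, limma adjusted p = 2.6e-09; SD, n = 2 each). Fbl averaged 12.3 ± 1.06 FPKM in L2-cell and 1.40 ± 0.0299 FPKM in E2-cell columns (log2 change 2.75, SE 0.13, limma adjusted p = 1.1e-08). Nop58 averaged 15.6 ± 2.36 FPKM in L2-cell and 2.62 ± 0.403 FPKM in E2-cell columns (log2 change 2.36, SE 0.17, limma adjusted p = 2.7e-07).

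Nop10, Dkc1 and Ncl rose by less. Their changes were 1.48, SE 0.20, adjusted p = 4.2e-05 for Nop10, 1.41, SE 0.26, adjusted p = 0.00049 for Dkc1 and 1.01, SE 0.22, adjusted p = 0.0018 for Ncl, by limma. L2-cell and E2-cell columns did not overlap for any of these 6, and the share of all rows without overlap was not counted. Npm1 fell slightly (log2 change -0.37, SE 0.15, limma adjusted p = 0.05), the adjusted p lying just under the threshold before rounding. That call was lost when any single E2-cell or L2-cell column was left out (limma adjusted p between 0.09 and 0.14) and when columns were scaled to equal sums of coding genes (-0.12), and kept without zygote replicate 1 (limma adjusted p = 0.0011). Nop56 (1.17, limma adjusted p = 0.2) and Npm2 (-1.90, limma adjusted p = 0.095) were not called with the widened error. Without zygote replicate 1 both changes kept their sizes. Npm3 was not called in either model (0.27, limma adjusted p = 0.42 and 0.24). Coding genes held 21.6% to 27.3% of the FPKM sum in L2-cell and 39.4% to 39.7% in E2-cell columns, and every E2-cell column carries a tag in its name that differs from that of every L2-cell column, and a difference of tag cannot be told apart from one of stage. Scaling moved these changes both ways. With equal coding sums the 6 rises lay between 1.27 and 4.74 on the log2 scale. With the median of ratios they lay between 0.88 and 4.36. The part of the coding share in them was not tested.

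Much of the nucleolar assembly line rose with them at L2-cell. Of the snoRNA particle partners 14 of 16 rose and none fell, including Nufip1, a box C/D assembly factor, at 52.3 FPKM in L2-cell and 3.69 FPKM in E2-cell (log2 change 3.65, limma adjusted p = 9.4e-09) and Znhit3, another, at 41.2 in L2-cell and 1.94 in E2-cell (4.10). Of the RNA polymerase I factors 15 of 16 rose and none fell: Cd3eap, a polymerase I subunit, had 26.5 in L2-cell and 0.716 in E2-cell (4.47) and Polr1c, a subunit shared with polymerase III, 48.7 in L2-cell and 2.79 in E2-cell (3.91). Of the processome genes 24 of 30 rose and 2 fell, with Nol11 at 22.2 in L2-cell and 0.899 in E2-cell (4.03) and Tbl3 at 28.2 in L2-cell and 1.12 in E2-cell (4.15). Of the large subunit factors 27 of 34 rose and none fell, with the ribosomal RNA methyltransferase Nop2 at 106 in L2-cell and 4.14 in E2-cell (4.52) and Mak16 at 69.8 in L2-cell and 3.52 in E2-cell (4.12). Histone chaperones were mixed, 8 of 18 higher and 5 lower (8 and 9 without zygote replicate 1): Set rose, at 116 in L2-cell and 5.36 in E2-cell (4.31), and Anp32a fell, at 0.784 in L2-cell and 5.69 in E2-cell (-2.27). The 12 oocyte markers summed to 481 to 522 FPKM in L2-cell and 1919 to 2047 FPKM in E2-cell columns, and 11 of them fell.

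Promoter windows were read for the members that rose together at L2-cell. RefSeq promoter windows (GRCm38.p6, 250 bases before to 50 after a start site) were held for 7 of the 10 members, in 12 windows, 6 of them of Ubtf; Npm1, Npm2 and Fbl had none. The windows of the 4 risers with a single start site are printed in the sense of the gene, with capitals marking the GC box motif GGGCGG or the TATA box motif TATAAA on either strand. The Ncl window is chr1:86359406-86359705 on the minus strand, that of Nop58 chr1:59684756-59685055 on the plus strand, that of Dkc1 chrX:75095604-75095903 on the plus strand and that of Nop10 chr2:112261676-112261975 on the plus strand.
Ncl: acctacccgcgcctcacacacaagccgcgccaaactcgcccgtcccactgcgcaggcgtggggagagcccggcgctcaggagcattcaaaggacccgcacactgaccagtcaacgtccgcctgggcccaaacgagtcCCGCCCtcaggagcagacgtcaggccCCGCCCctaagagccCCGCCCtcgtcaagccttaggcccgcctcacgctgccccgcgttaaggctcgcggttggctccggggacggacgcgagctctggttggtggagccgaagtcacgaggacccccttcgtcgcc
Nop58: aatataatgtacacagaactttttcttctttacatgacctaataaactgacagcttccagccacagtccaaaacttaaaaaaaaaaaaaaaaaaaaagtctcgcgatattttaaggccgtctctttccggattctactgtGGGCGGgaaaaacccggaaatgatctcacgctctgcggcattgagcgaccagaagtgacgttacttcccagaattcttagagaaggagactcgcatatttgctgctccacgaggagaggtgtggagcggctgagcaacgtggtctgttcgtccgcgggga
Dkc1: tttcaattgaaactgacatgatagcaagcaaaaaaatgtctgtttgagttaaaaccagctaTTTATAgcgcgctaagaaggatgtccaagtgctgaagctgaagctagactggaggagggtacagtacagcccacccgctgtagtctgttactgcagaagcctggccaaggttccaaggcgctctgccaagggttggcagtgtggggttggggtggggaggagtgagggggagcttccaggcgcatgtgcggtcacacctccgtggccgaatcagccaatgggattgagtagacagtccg
Nop10: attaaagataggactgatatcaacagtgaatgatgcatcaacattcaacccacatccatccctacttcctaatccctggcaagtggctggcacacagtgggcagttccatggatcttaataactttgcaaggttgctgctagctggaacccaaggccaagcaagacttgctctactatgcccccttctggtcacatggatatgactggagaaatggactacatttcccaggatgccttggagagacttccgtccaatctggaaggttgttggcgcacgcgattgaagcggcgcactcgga
The Ncl window has 3 GC boxes and 69.3% G and C, that of Nop58 has 1 and 45.3%, and those of Dkc1 and Nop10 have none, at 53.0% and 49.3%. The median of all 32851 windows was 52.7% G and C. The letters GGGCGG on either strand stood in 9 of the 12 member windows, in Ncl, Nop56, Nop58, Npm3 and Ubtf, and in 35.7% of all windows. Ubtf alone holds 6 of the 12 windows, so 9 of 12 is not a share of genes. TATAAA stood in that of Dkc1 and in 13.6% of all windows. None of the 12 held CACGTG (7.15% of all windows), CCGGAAGT (3.89%), the palindromic NRF1 motif (0.971%) or TAATTG (8.0%). The 4 printed windows differ in these letters although their genes rose at the same step.

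At the 4-cell stage the rise went on and Npm1 joined it. The column names end in merge from the 4-cell stage on and in other tags up to L2-cell. That difference cannot be told apart from one of stage at this step. Of all rows 56.3% were called at this step, 30.2% higher and 26.2% lower, but with equal coding sums 4509 rows were higher and 6961 lower. Ncl averaged 87.2 ± 4.80 FPKM in 4-cell and 14.6 ± 4.05 FPKM in L2-cell columns (log2 change 2.56, SE 0.22, limma adjusted p = 4.1e-06; SD, n = 2 each), the largest change among the members. Npm1 averaged 651 ± 11.5 FPKM in 4-cell and 176 ± 3.99 FPKM in L2-cell columns (log2 change 1.88, SE 0.15, limma adjusted p = 2.6e-06). Fbl (1.53), Ubtf (1.11), Nop10 (0.99) and Nop58 (0.94) rose too, with limma adjusted p between 2.7e-06 and 0.0012.

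The 4-cell changes of the other 4 members were not called with all columns. They were 0.92 for Nop56, 0.50 for Dkc1, 0.30 for Npm3 and -1.05 for Npm2. Without zygote replicate 1 these changes kept their sizes. In the lists 11 of 16 RNA polymerase I factors rose and 1 fell, 16 of 30 processome genes rose and 1 fell, and 15 of 34 large subunit factors rose and 1 fell. Mybbp1a, a large subunit factor, averaged 90.6 in 4-cell and 21.7 in L2-cell (2.08) and Heatr1 of the processome 78.6 in 4-cell and 25.3 in L2-cell (1.62). Of the snoRNA particle partners 8 of 16 rose and 2 fell, and of the histone chaperones 6 of 18 rose and 3 fell. With equal coding sums 6 of the RNA polymerase I factors rose and 2 fell, 10 of the processome genes rose and 2 fell, 6 of the large subunit factors rose and 6 fell, and 4 of the snoRNA particle partners rose and 2 fell, so this rise of the lists depends on the scaling. Snu13, which binds the snoRNA itself, had 118 in 4-cell and 47.7 in L2-cell (1.29).

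From the 4-cell stage to the morula few members passed the test in the model with all columns, whose error zygote replicate 1 widens. Between 8-cell and 4-cell columns 35.0% of rows were called (13.4% higher, 21.6% lower; 1806 and 5554 rows with equal coding sums) and of the members only Npm1 rose (log2 change 0.56, SE 0.15, limma adjusted p = 0.017). The call was lost when any one of the 4 columns was left out (limma adjusted p between 0.063 and 0.081) and with equal coding sums (0.34, limma adjusted p = 0.1). Between morula and 8-cell columns 20.9% of rows were called (8.39% higher, 12.5% lower) and no member by limma, with 1 at an unadjusted p under 0.05, Nop58 (0.42). In models of the 2 groups alone these counts of called members were 5 and 8. Their shares over all rows are not given here, so they are no result about the members. Without zygote replicate 1 more members passed, but so did a larger share of all rows, so these calls are no result about the members. At 8-cell against 4-cell, Npm1 (0.56) and Nop56 (0.54) were then higher and Npm2 (-0.73) and Ncl (-0.49) lower. At morula against 8-cell, Npm1 (0.31), Ncl (0.48), Nop58 (0.42) and Dkc1 (0.35) were higher and Npm2 lower (-1.27, limma adjusted p = 0.00045).

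In the blastocyst 4 of the 7 nucleolar proteins and 2 of the 3 nucleoplasmins fell. Of all rows 38.7% were called between blastocyst and morula, 22.4% higher and 16.3% lower (3407 and 3890 rows with the median of ratios), and the median member changed by -0.72 while the middle row did not move. Npm2 averaged 0.861 ± 0.0922 FPKM in blastocysts and 11.6 ± 1.85 FPKM in morulae (log2 change -3.14, SE 0.94, limma adjusted p = 0.02; SD, n = 2 each). Ubtf averaged 28.4 ± 1.51 FPKM in blastocysts and 68.5 ± 4.65 FPKM in morulae (log2 change -1.25, SE 0.17, limma adjusted p = 0.00011). Npm1 averaged 601 ± 18.1 FPKM in blastocysts and 1190.0 ± 24.4 FPKM in morulae (log2 change -0.99, SE 0.15, limma adjusted p = 0.00034).

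Nop58 (-0.98, SE 0.17, adjusted p = 0.00062, limma), Ncl (-0.81, SE 0.22, adjusted p = 0.013, limma) and Fbl (-0.63, SE 0.13, adjusted p = 0.002, limma) fell as well, making 6 of 10. The calls of Npm2 and Ncl were each lost when any single morula or blastocyst column was left out, with limma adjusted p between 0.07 and 0.099 for Npm2 and between 0.058 and 0.072 for Ncl. Dkc1 was lower as well (-0.64) but was not called with all columns. Nop56 (-0.08) was not called, nor was Nop10, which stood higher in blastocyst columns (0.40, limma adjusted p = 0.14). Of the RNA polymerase I factors 11 of 16 fell and none rose, with Taf1a at 6.34 in blastocysts and 23.3 in morulae (-1.81) and Ubtfl1, a relative of Ubtf, at 4.56 in blastocysts and 18.1 in morulae (-1.87). Of the processome genes 13 of 30 fell and 1 rose, with Wdr43 at 64.4 in blastocysts and 215 in morulae (-1.73), and of the large subunit factors 13 of 34 fell and none rose (24 and none with the median of ratios, 27 and none without zygote replicate 1), with Wdr12 at 5.10 in blastocysts and 11.0 in morulae (-1.04). Of the snoRNA particle partners 7 of 16 fell and 1 rose, and of the histone chaperones 3 of 18 fell and 1 rose, Asf1a, at 15.3 in blastocysts and 8.19 in morulae (0.86).

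**Figure D2:**
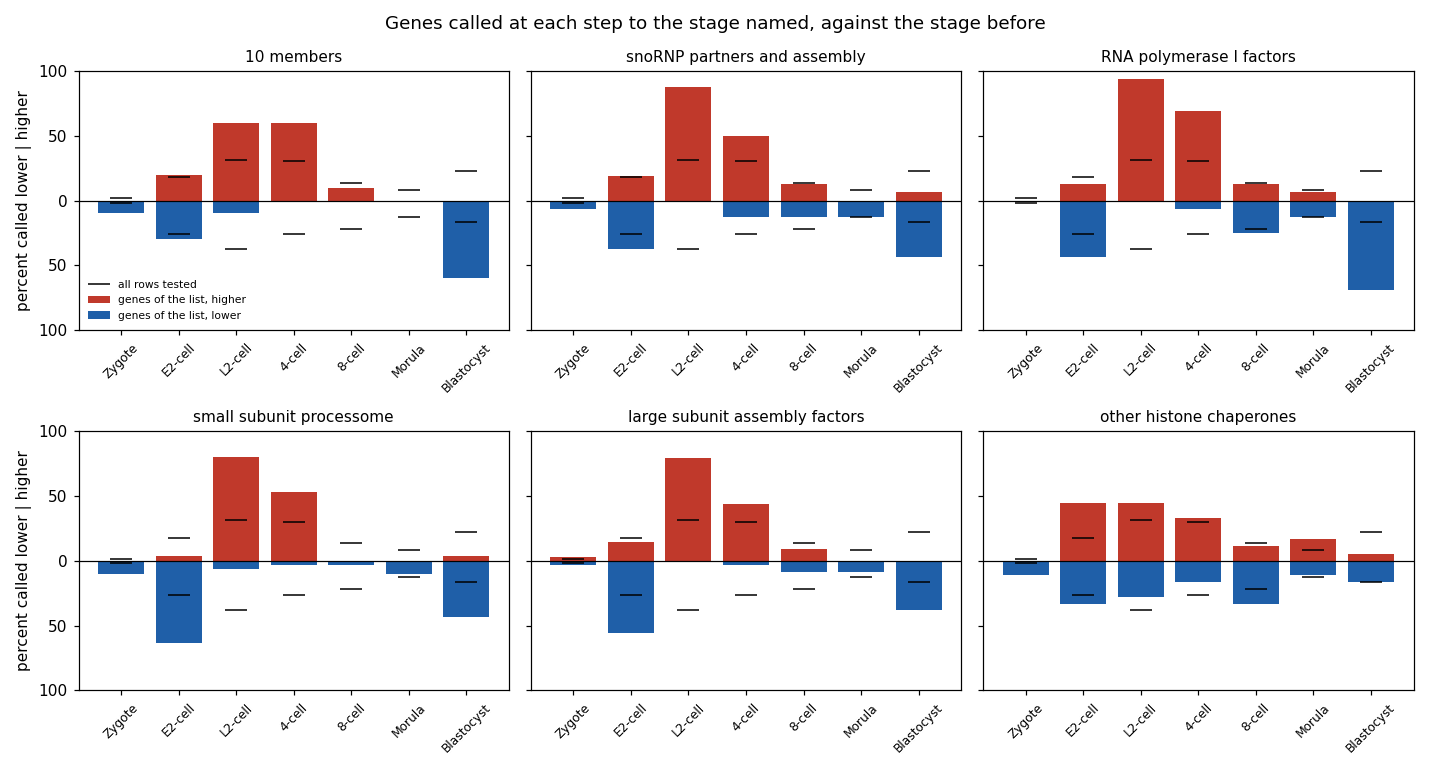
Percent of tested genes called higher (above 0) or lower (below 0) at each step from the stage before, for the 10 members and 5 pathway lists, with short lines for all rows tested. At L2-cell the bars of the snoRNA particle partners, RNA polymerase I factors, processome and large subunit factors reach above the line of all rows, and at E2-cell those of the processome and large subunit factors reach below it.

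Over the whole course, blastocyst against MII, 80.3% of rows were called, 40.1% higher and 40.2% lower. The column names of these stages also end differently, which cannot be told apart from stage. Of the members 8 rose, Fbl by 4.03, Ubtf by 3.51, Ncl by 2.14, Npm1 by 2.13, Npm3 by 2.09, Nop10 by 1.84, Nop58 by 1.55 and Dkc1 by 1.20, with limma adjusted p between 1.3e-10 and 0.0012. Npm2 fell by 9.18 (limma adjusted p = 2.7e-06). Nop56 was called only without zygote replicate 1 (1.34, limma adjusted p = 0.13 with it and 2.7e-06 without it). Npm2 made up 74.8% to 80.6% of the 10 genes' summed FPKM in MII and 0.0848% to 0.101% in blastocysts, while Npm1 made up 11.6% to 15.7% in MII and 71.8% to 72.7% in morulae.

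Ratios of 2 members were taken within each column. The log2 ratio of Npm1 to Npm2, each plus 0.5 FPKM, averaged -2.52 in MII, -0.70 in E2-cell, 0.83 in L2-cell, 3.76 in 4-cell, 5.05 in 8-cell, 6.63 in morula and 8.79 in blastocyst columns, and its 2 zygote columns stood at 1.89 and -1.95. It turned positive between E2-cell and L2-cell, while the ratio of Npm3 to Npm2 reached 0.02 at the 8-cell stage, after -6.44 in MII, and 4.83 in the blastocyst. Among the box C/D proteins, the mean FPKM of Nop56 was 22.8 times that of Fbl in MII, 9.72 times in E2-cell, 2.53 times in L2-cell and 1.63 times in 4-cell columns. The mean FPKM of Nop58 was 5.71 times that of Fbl in MII, 8.50 times in zygotes, 1.87 times in E2-cell, 1.27 times in L2-cell and 0.825 times in 4-cell columns. The 3 proteins of 1 particle thus had unequal transcripts before L2-cell and less unequal ones after it, on the FPKM scale.

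**Figure D3:**
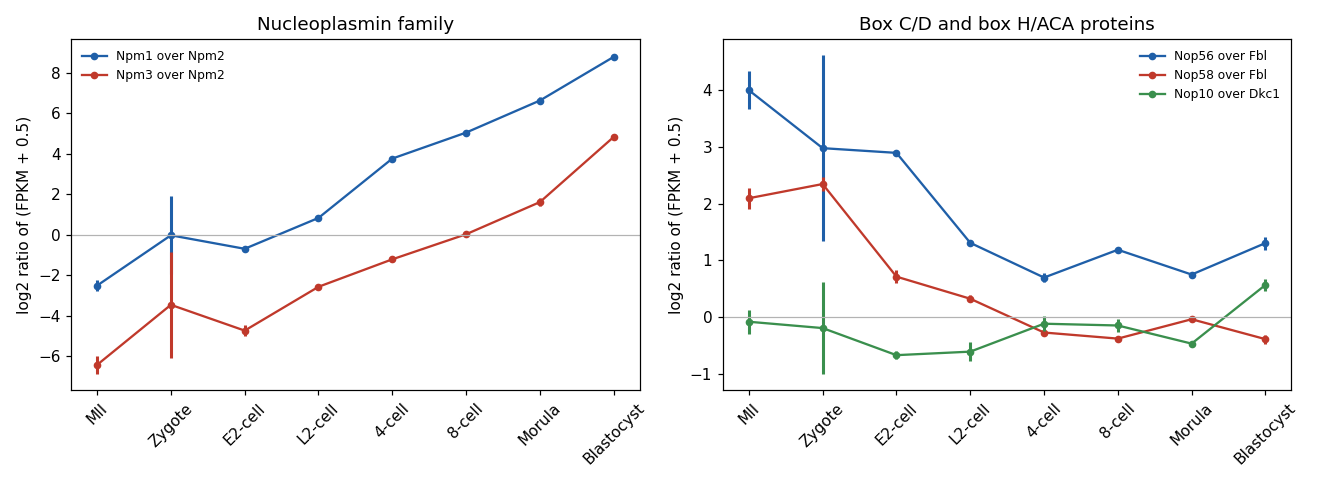
Mean log2 ratio of (FPKM + 0.5) for pairs of members over 8 stages, with bars from the lowest to the highest column. Npm1 over Npm2 climbs at every step outside the zygote to 8.79 in blastocysts, and Nop56 over Fbl declines to 0.70 at the 4-cell stage.

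Stage patterns of the members were compared as correlations of the 8 stage means on the log2(FPKM + 0.5) scale, which share columns, tags and scaling and are given as a description. Npm2 ran opposite to the other 9, with Pearson r between -0.944 (Npm3) and -0.656 (Ubtf). Among the other 9 r lay between 0.744 (Npm3 with Ubtf) and 0.989 (Nop58 with Dkc1). Among 9085 protein-coding rows with a stage mean of at least 5 FPKM, the gene most like Npm1 was Myadm (r = 0.992), and those most like the others were Tdrd9 for Npm2 (0.995), Hist1h4k for Npm3 (0.993), Srsf2 for Ncl (0.989), Ola1 for Fbl (0.9996), Ccs for Nop56 (0.985), Utp14a for Nop58 (0.991), Surf2 for Dkc1 (0.993), Nomo1 for Nop10 (0.998) and Pa2g4 for Ubtf (0.998). With zygote replicate 2 alone as the zygote value, r between Nop56 and Ccs was 0.930.

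The bounds of 4 members enclose 13 annotated snoRNA genes on the same strand: 5 in Nop56, 4 in Nop58, 3 in Ncl and 1 in Dkc1. Among those in Nop56, Gm23187 matches a coding transcript of Nop56 over its whole length. Such short transcripts are poorly held by total RNA libraries, so their FPKM are given with that limit. Gm24451, a snoRNA inside Nop56 at chr2:130276237-130276369, had 0.526 to 0.775 FPKM in MII, 0.906 to 1.88 in zygote, 3.67 to 4.85 in E2-cell, 33.7 to 42.9 in L2-cell, 7.06 to 14.2 in 4-cell and 9.82 to 13.9 in blastocyst columns. It rose at L2-cell (log2 change 3.03, limma adjusted p = 7.9e-06) and fell at 4-cell (-1.87, limma adjusted p = 0.00052), where its host Nop56 did not fall. Of the 13, 8 passed the filter and were tested. At L2-cell against E2-cell 6 rose by 1.50 to 3.07 and 2 inside Nop56, Snord57 and Snord110, were not called. Among the risers Gm25520, Gm26287, Snord70 and Snord11 had less than 1 FPKM in every MII, zygote and E2-cell column. They passed the filter only through L2-cell or later columns, so their rise is largely set by the filter and is no result about them. The share of all rows called higher at that step was the 31.1% given above.

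In the finer series after fertilization, Ncl fell and Npm1 rose between 14 and 17 hours. Ncl had 31.8 and 30.5 FPKM at 14 hours, 14.8 and 11.7 at 17 hours and 14.8 and 11.3 at 20 hours. Npm1 had 173 and 164 FPKM at 14 hours, 212 and 213 at 17 hours and 224 and 231 at 20 hours. Dkc1 had 18.8 and 18.6 FPKM at 14 hours, 24.6 and 25.7 at 17 hours and 18.8 and 18.0 at 20 hours. The 14-hour columns lay apart from the later ones for Ncl and Npm1, and the 17-hour columns lay apart from both others for Dkc1. Names of the 17-hour columns end in cat and those of the 14-hour and 20-hour columns in merge, without a stated meaning. In any comparison with 17 hours this difference cannot be told apart from one of time. At 17 against 14 hours 37.0% of rows were called (20.5% higher, 16.5% lower; 1872 and 2697 rows with the median of ratios) and 3 members, with Ncl lower (-1.21, SE 0.15, adjusted p = 0.0024, limma) and Dkc1 (0.42, SE 0.04, adjusted p = 0.0016, limma) and Npm1 (0.34, SE 0.04, adjusted p = 0.0021, limma) higher. Npm2 was called lower there too without 17-hour replicate 1 (-0.16, limma adjusted p = 0.033).

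Later changes in this series were small. At 20 against 17 hours 19.6% of rows were called (5.13% higher, 14.5% lower; 774 and 1292 rows with the median of ratios, 801 and 1280 with equal coding sums) and 3 members: Dkc1 fell (-0.44, SE 0.04, adjusted p = 0.0029, limma), Npm3 rose (0.34, SE 0.07, adjusted p = 0.029, limma) and Npm2 fell (-0.17, SE 0.04, adjusted p = 0.033, limma). The call of Npm3 was lost without 17-hour replicate 2 (limma adjusted p = 0.11), 20-hour replicate 1 (0.082) or 20-hour replicate 2 (0.13), and that of Npm2 without 17-hour replicate 1 (0.098), 20-hour replicate 1 (0.15) or 20-hour replicate 2 (0.12), leaving 1 or 2 called members. Both scalings also ended the call of Npm2 at 20 against 17 hours (-0.13, limma adjusted p = 0.066 with the median of ratios; -0.13, limma adjusted p = 0.078 with equal coding sums) and called it lower at 17 against 14 hours (-0.18, limma adjusted p = 0.013; -0.13, limma adjusted p = 0.041), so the step at which Npm2 falls depends on the scaling. With no filter the calls of Npm2 (limma adjusted p = 0.1) and Npm3 (limma adjusted p = 0.087) at 20 against 17 hours were lost, and in the 2 groups alone that of Npm2 (limma adjusted p = 0.057). At 20 against 14 hours 39.2% of rows were called (16.2% higher, 22.9% lower), and Ncl (-1.24) and Npm2 (-0.29) were lower and Npm1 higher (0.43), with limma adjusted p between 0.00062 and 0.0026. Without 20-hour replicate 1 Nop10 was also called (0.57, limma adjusted p = 0.014). Other marker lists moved at 20 hours: 10 blastocyst markers summed to 15.6 to 18.5 FPKM at 20 hours and 3.12 to 3.67 FPKM at 17 hours, with 3 of 4 tested called higher, and 12 cumulus and granulosa markers to 9.10 to 9.12 FPKM at 20 hours and 5.97 to 6.28 FPKM at 17 hours, with 1 of 2 tested higher and 1 lower. The 10 markers of the 2-cell embryo summed to 16.5 to 17.5 FPKM at 20 hours and 8.21 to 8.65 FPKM at 17 hours, and the part of these lists in the members' changes was not tested. Fbl stayed between 0.915 and 1.56 FPKM and Ubtf between 0.980 and 1.29 FPKM at all 3 times.

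The control embryos of the MT2Mm experiment cover the passage to 2 cells with 3 samples a side. They did not repeat the levels of the stage series, which has another strain. Ncl averaged 120 FPKM in Late1c ctrl samples, 12.6 FPKM in zygotes and 31.2 FPKM at 14 hours. Nop10 averaged 2.23 FPKM in Late1c ctrl samples, 11.5 FPKM in zygotes and 5.31 FPKM at 14 hours. The cause was not tested. Between Early2c ctrl and Late1c ctrl 79.2% of rows were called, 33.5% higher and 45.7% lower. Npm2 had 231, 194 and 228 FPKM in Early2c ctrl and 803, 691 and 725 FPKM in Late1c ctrl samples (log2 change -1.76, SE 0.07, limma adjusted p = 6.3e-10). Ncl had 34.4, 36.0 and 34.5 FPKM in Early2c ctrl and 114, 137 and 109 FPKM in Late1c ctrl samples (log2 change -1.76, SE 0.07, limma adjusted p = 3.8e-10). Nop56 had 11.7, 12.6 and 11.3 FPKM in Early2c ctrl and 31.5, 30.4 and 30.8 FPKM in Late1c ctrl samples (log2 change -1.34, SE 0.05, limma adjusted p = 1.5e-10). For these 3 the samples did not overlap, and the share of all rows without overlap was not counted.

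Dkc1 (-1.11) and Nop58 (-1.11) fell as well between Late1c and Early2c in controls and Fbl rose (0.38), with limma adjusted p between 1.4e-09 and 0.0015. Npm1 did not pass the test (-0.04, limma adjusted p = 0.47), but it was called higher when columns were scaled by the median of ratios (0.16, limma adjusted p = 0.0093) or to equal coding sums (0.13, limma adjusted p = 0.017). Without Early2c ctrl replicate 3 Ubtf was called higher too (0.31, limma adjusted p = 0.0094). In the lists 27 of 33 large subunit factors fell and 4 rose, and 25 of 30 processome genes fell and 1 rose. Bms1, a GTPase of the processome, averaged 35.3 in Early2c ctrl and 336 in Late1c ctrl (-3.24) and Mak16 of the large subunit 10.2 in Early2c ctrl and 0.219 in Late1c ctrl (3.89). Of the RNA polymerase I factors 8 of 14 fell and 5 rose, and of the snoRNA particle partners 8 of 15 fell and 6 rose. The snoRNA Gm24451 rose while its host Nop56 fell, with 25.4 to 33.5 FPKM in Early2c ctrl and 7.81 to 10.3 FPKM in Late1c ctrl samples (log2 change 1.66, limma adjusted p = 1.5e-05), and Snord82 inside Ncl rose by 1.22.

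The knockout of MT2Mm, whose question was what the loss of this repeat does to activation of the genome, gave no called change of a member at Late1c. Between Late1c ko and Late1c ctrl 0.114% of 13180 rows were called by limma (0.0455% higher, 0.0683% lower) and no member, with none at an unadjusted p under 0.05 and changes between -0.12 and 0.03. All 5 lists also had no called gene by limma, with 0 to 7 genes each at an unadjusted p under 0.05. Npm2 had 686, 699 and 653 FPKM in Late1c ko and 803, 691 and 725 FPKM in Late1c ctrl samples, and Ncl had 109, 109 and 113 FPKM in Late1c ko and 114, 137 and 109 FPKM in Late1c ctrl samples. Their ranges overlapped. All Late1c ko samples of Nop56 (29.6, 29.4 and 29.3 FPKM) lay under all Late1c ctrl samples (31.5, 30.4 and 30.8 FPKM), but Nop56 was not called. How many of all rows had no overlap was not counted, so this is no result about Nop56.

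At Early2c 5 members were higher in the knockout. Of all rows 49.0% were called there, 33.4% higher and 15.6% lower (3122 and 3404 rows with the median of ratios, 3737 and 2720 with equal coding sums), and the middle row changed by 0.11 against 0.31 for the median member. Dkc1 had 26.7, 26.8 and 28.6 FPKM in Early2c ko and 16.3, 14.4 and 15.3 FPKM in Early2c ctrl samples (log2 change 0.82, SE 0.05, limma adjusted p = 3.6e-07). Ncl had 62.9, 60.7 and 61.9 FPKM in Early2c ko and 34.4, 36.0 and 34.5 FPKM in Early2c ctrl samples (log2 change 0.81, SE 0.07, limma adjusted p = 3e-06). Npm2 had 351, 338 and 343 FPKM in Early2c ko and 231, 194 and 228 FPKM in Early2c ctrl samples (log2 change 0.66, SE 0.07, limma adjusted p = 2.1e-05). Every ko sample lay above every ctrl sample for these 3, a separation whose share over all rows was not counted.

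The same held for Nop56 and Npm1. Nop56 had 19.3, 18.4 and 19.6 FPKM in Early2c ko and 11.7, 12.6 and 11.3 FPKM in Early2c ctrl samples (log2 change 0.66, SE 0.05, limma adjusted p = 8.8e-07). Npm1 had 295, 285 and 279.5 FPKM in Early2c ko and 209.6, 208 and 226 FPKM in Early2c ctrl samples (log2 change 0.42, SE 0.05, limma adjusted p = 2.7e-05). The other 4 had fallen between Late1c and Early2c in controls, where Npm1 was called only after scaling, and then as higher. Nop58 had also fallen there (-1.11) but was not called in Early2c ko. Both comparisons use the same Early2c ctrl samples, so these values are set side by side only. Nop58 (log2 change 0.01), Nop10 (-0.09), Ubtf (0.16), Fbl (0.18) and Npm3 (0.20) were not called; without Early2c ko replicate 2 Fbl (0.25, limma adjusted p = 0.041) and Npm3 (0.33, limma adjusted p = 0.034) were. Of the 6 snoRNA genes tested inside the members limma called none, with 1 at an unadjusted p under 0.05, and Gm24451 changed by -0.36 (limma adjusted p = 0.18) while its host rose.

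Other values moved with these changes. Coding genes held 34.0% to 34.7% of the FPKM sum in Early2c ko and 28.2% to 30.6% in Early2c ctrl samples. With equal coding sums and with scaling by the median of ratios all 5 changes stayed positive and called, that of Npm1 at 0.34 and 0.27. The 12 oocyte markers, all of which reached 1 FPKM in both groups, summed to 1085 to 1209 FPKM in Early2c ko and 978 to 1104 FPKM in Early2c ctrl samples, and 5 rose and 1 fell. The 10 markers of the 2-cell embryo, all of which also reached 1 FPKM, summed to 336 to 361 FPKM in Early2c ko and 413 to 434 FPKM in Early2c ctrl samples, and 5 fell and 1 rose. Their part in the members' changes was not tested.

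Across the pathway, 27 of 33 large subunit factors and 23 of 30 processome genes were higher in Early2c ko, with 0 and 1 lower, and with the median of ratios 24 and 20 were higher and 1 and 3 lower. Bms1 averaged 97.2 FPKM in Early2c ko and 35.3 FPKM in Early2c ctrl (log2 change 1.45, limma adjusted p = 2.6e-07), Ddx18, a helicase of large subunit assembly, 26.9 in Early2c ko and 10.1 in Early2c ctrl (1.37) and Utp4 7.74 in Early2c ko and 2.39 in Early2c ctrl (1.51). Of the RNA polymerase I factors 8 of 14 rose and 2 fell, with Taf1a at 24.8 in Early2c ko and 9.92 in Early2c ctrl (1.28) and Taf1b at 5.21 in Early2c ko and 1.85 in Early2c ctrl (1.28). Of the snoRNA particle partners 7 of 15 rose and none fell, with Nolc1, a chaperone of snoRNA particles, at 31.2 in Early2c ko and 18.1 in Early2c ctrl (0.77). Of the histone chaperones 8 of 18 rose and 5 fell, turned round to 5 and 7 with the median of ratios and 5 and 6 with equal coding sums, with Nasp, a chaperone of histone H3, at 78.6 in Early2c ko and 54.1 in Early2c ctrl (0.54) and Cabin1, a subunit of the HIRA complex, at 14.9 in Early2c ko and 21.5 in Early2c ctrl (-0.51).

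The difference between the effect at Early2c and that at Late1c was itself tested as an interaction. Of all rows 37.3% were called, 25.7% higher and 11.6% lower (2275 and 2549 rows with the median of ratios, 2789 and 1998 with equal coding sums). The same 5 members had a larger effect at Early2c: Ncl (0.93, SE 0.10, adjusted p = 3.8e-05, limma), Dkc1 (0.84, SE 0.07, adjusted p = 1.1e-05, limma), Npm2 (0.78, SE 0.10, adjusted p = 0.00017, limma), Nop56 (0.73, SE 0.07, adjusted p = 1.7e-05, limma) and Npm1 (0.48, SE 0.07, adjusted p = 0.00024, limma). At Early2c against Late1c in ko embryos, Npm2 (-0.98), Ncl (-0.83), Nop56 (-0.61), Dkc1 (-0.28) and Nop58 (-1.12) fell and Fbl (0.57) and Npm1 (0.45) rose, with limma adjusted p between 2.5e-07 and 0.00045. Of all rows 70.4% were called in that comparison, 33.9% higher and 36.6% lower. It shares its Early2c ko samples with the comparison above, so the values are set side by side only. Without Early2c ko replicate 2 Npm3 was called there too (0.33, limma adjusted p = 0.023).

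**Figure D4:**
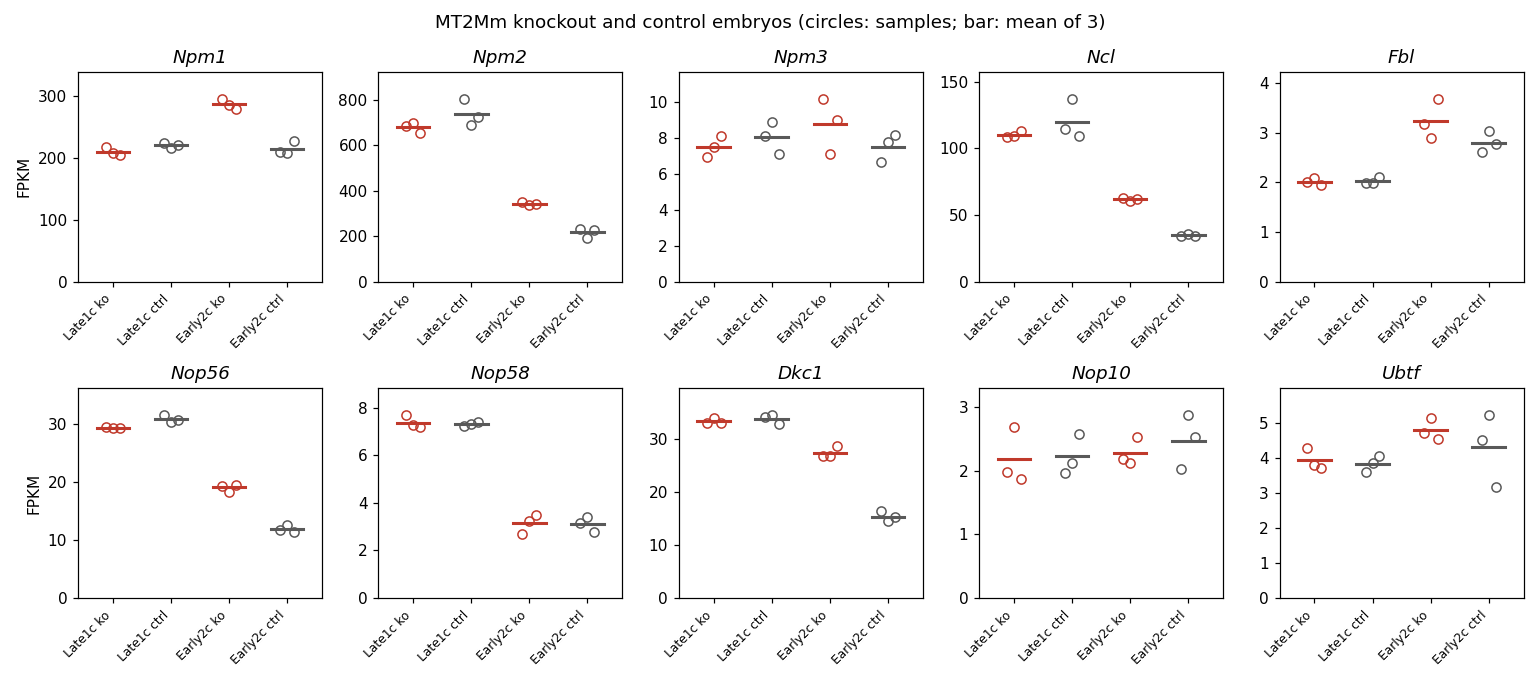
FPKM in single samples (circles) and group means of 3 (bars) for the 10 genes, with ko left of ctrl at Late1c and at Early2c. The Early2c ko samples of Dkc1, Ncl, Npm2, Nop56 and Npm1 all lie above the Early2c ctrl samples, a separation not counted over all rows. Late1c ko and ctrl samples overlap for every gene but Nop56, which was not called there.

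Knockdown of LncR-3363 also left 5 members higher. Of 11492 rows 43.7% were called between KD-1cell and Ctrl, 29.8% higher and 13.9% lower (2352 and 2332 rows with the median of ratios, 2686 and 2064 with equal coding sums), and the middle row changed by 0.12 against 0.40 for the median member. Npm2 had 626, 624, 690.4 and 689 FPKM in KD-1cell and 341, 362, 349.9 and 369 FPKM in Ctrl samples (log2 change 0.88, SE 0.06, limma adjusted p = 6e-06). Ncl had 72.0, 74.3, 84.5 and 92.8 FPKM in KD-1cell and 49.98, 51.4, 48.7 and 48.5 FPKM in Ctrl samples (log2 change 0.69, SE 0.08, limma adjusted p = 0.00014). Dkc1 had 33.7, 33.2, 35.3 and 33.3 FPKM in KD-1cell and 22.0, 22.5, 25.6 and 23.0 FPKM in Ctrl samples (log2 change 0.53, SE 0.06, limma adjusted p = 0.00014). No KD-1cell sample overlapped a Ctrl sample for these 3, but the share of all rows without overlap was not counted.

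Nop56 and Nop58 completed the 5. Nop56 had 19.0, 17.3, 20.4 and 14.7 FPKM in KD-1cell and 11.0, 12.9, 10.9 and 11.8 FPKM in Ctrl samples (log2 change 0.59, SE 0.10, limma adjusted p = 0.0016). Nop58 had 4.38, 3.73, 3.79 and 3.06 FPKM in KD-1cell and 2.02, 2.62, 2.32 and 2.40 FPKM in Ctrl samples (log2 change 0.57, SE 0.12, limma adjusted p = 0.0046). Neither overlapped between the groups, with the same limit. Fbl (0.27), Npm1 (0.14), Npm3 (0.07), Ubtf (0.05) and Nop10 (-0.30) were not called, so of the box C/D proteins Nop56 and Nop58 passed the test and Fbl did not (limma adjusted p = 0.082); the difference between them was not tested. The 5 calls were kept when any one of the 8 samples was left out and when KD-2cell entered as a further group.

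The single KD-2cell sample, which allows no test, stood nearer to the Ctrl mean than to the KD-1cell mean for these 5 genes. It had 401 FPKM for Npm2, 55.6 for Ncl, 21.5 for Dkc1, 10.1 for Nop56 and 2.37 for Nop58. Dkc1 and Nop56 were below every Ctrl sample, Nop58 was within their range, and Npm2 and Ncl were above every Ctrl sample and below every KD-1cell sample.

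Oocyte markers moved the same way in the knockdown. The 12 of them, all above 1 FPKM in both groups, summed to 1196 to 1563 FPKM in KD-1cell and 1026 to 1133 FPKM in Ctrl samples, and 8 rose and none fell. The 10 markers of the 2-cell embryo summed to 163 to 245 FPKM in KD-1cell and 196 to 272 FPKM in Ctrl samples, with 1 higher. Coding genes held 41.3% to 46.1% of the FPKM sum in KD-1cell and 34.5% to 39.5% in Ctrl samples. With equal coding sums or the median of ratios the change of Npm2 was 0.79 or 0.75 and all 5 calls were kept; the part of the markers was not tested.

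Among the lists 24 of 32 large subunit factors rose and 3 fell, and 21 of 28 processome genes rose and 2 fell in KD-1cell. Nifk, which binds Ki-67, averaged 33.5 FPKM in KD-1cell and 15.3 FPKM in Ctrl (log2 change 1.10, limma adjusted p = 1.9e-06) and Gnl2, a nucleolar GTPase, 7.53 in KD-1cell and 2.44 in Ctrl (1.44). Of the snoRNA particle partners 7 of 13 rose and none fell, with Nolc1 at 47.5 in KD-1cell and 23.9 in Ctrl (0.97). Of the RNA polymerase I factors 6 of 14 rose and 1 fell, with Taf1a at 41.5 in KD-1cell and 19.1 in Ctrl (1.10). Of the histone chaperones 7 of 18 rose and 4 fell (6 and 6 with the median of ratios), with Chaf1a, the large subunit of CAF-1, at 78.2 in KD-1cell and 54.0 in Ctrl (0.53) and Anp32e, a chaperone of H2A.Z, at 7.38 in KD-1cell and 13.1 in Ctrl (-0.79). The log2 ratio of Npm1 to Npm2 averaged -1.32 in KD-1cell and -0.57 in Ctrl samples, and -0.26 in Early2c ko and -0.02 in Early2c ctrl samples.

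**Figure D5:**
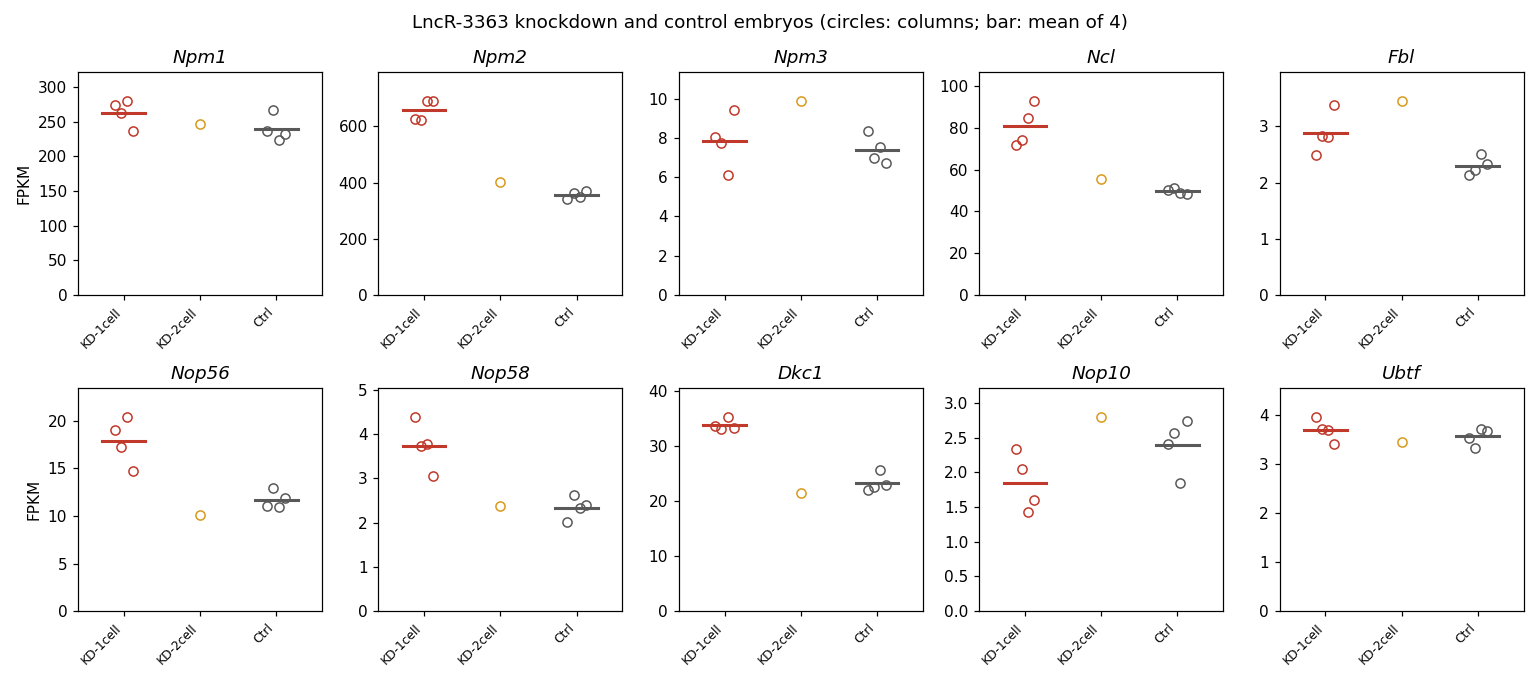
FPKM in single samples (circles) and means of 4 (bars) for the 10 genes in KD-1cell, the single KD-2cell sample and Ctrl. Npm2, Ncl, Dkc1, Nop56 and Nop58 have all KD-1cell samples above all Ctrl samples, and the other 5 genes do not. Such separation was not counted over all rows.

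Some levels could share reads with other annotated transcripts. Npm1 has 9 annotated pseudogene copies that match it over at least 50% of their length at 90% identity or more, of which 6 reached 1 FPKM and the highest, Gm6477, 34.7 FPKM. The copy of Npm3 reached 2.75 FPKM and that of Nop10 0.164 FPKM. Of the short copies, Gm49739, which matches Nop56 at 100.0% identity over 210 bases, reached 43.4 FPKM and had at least 1 FPKM in 41 of 43 columns, and Gm48789, a copy of Nop58, reached 16.1 FPKM. Gm49739 had 3.69 to 4.58 FPKM in KD-1cell and 0.479 to 2.45 FPKM in Ctrl samples (log2 change 1.24, limma adjusted p = 0.0079), and 3.46 to 3.82 FPKM in Early2c ko and 1.93 to 3.53 FPKM in Early2c ctrl samples (0.45, limma adjusted p = 0.053). A transcript of Tulp4 matches Fbl at 99.6% identity over 87.5% of its length, and Tulp4 had at least 1 FPKM in all 43 columns, with a median of 6.89 FPKM. Gm5812, another copy of Fbl, had a median of 0.055 FPKM and reached 9.03 FPKM in the morula. Because Fbl itself was under 2 FPKM in oocytes and zygotes, reads that the counting could place on another row make its level there uncertain. Reads of Nop56 and Nop58 could also be placed on the copies named above. Both had more than 2 FPKM in every MII and zygote column, and the part of such reads in their levels was not tested. Tulp4 rose with Fbl at E2-cell against zygote (1.31, limma adjusted p = 0.0093) and at Early2c ctrl against Late1c ctrl (0.37, limma adjusted p = 0.00067). It changed little at L2-cell against E2-cell (-0.13) and 4-cell against L2-cell (0.01), where Gm5812 rose (2.1 and 0.75). In ko embryos Tulp4 changed by 0.06 at Early2c against Late1c. The part of shared reads in the rises of Fbl was not tested. Npm2 overlaps Xpo7 on the same strand, Npm3 overlaps the antisense gene Gm15491, and the ends of Nop56 and Dkc1 overlap Idh3b and Mpp1 on the opposite strand. The members lie at chr11:33152287-33163206 (Npm1), chr14:70647302-70659244 (Npm2), chr19:45747734-45749591 (Npm3), chr1:86344719-86359400 (Ncl), chr7:28169710-28179269 (Fbl), chr2:130274430-130279313 (Nop56), chr1:59684971-59719044 (Nop58), chrX:75095854-75109777 (Dkc1), chr2:112261926-112263269 (Nop10) and chr11:102304560-102319742 (Ubtf) in GRCm38.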

How the data were processed

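Total RNA was sequenced as paired reads of 150 bases with TruSeq Stranded or SMARTer Stranded v2 kits, per the labels' protocols, with the kit of each sample not given. The authors deposited 1 table of FPKM with 59119 rows and 43 sample columns; the submitters' processing notes name cutadapt 1.18, HISAT2 2.1.0, Cufflinks, StringTie 1.3.4d, Cuffdiff 2.2.1 and GRCm38, without roles. FPKM give no read depth and are relative within a column. Of the columns 20 were matched to 1 sample and 23 to a group only. Columns of the LncR-3363 groups carry another short name, and their link rests on the number of columns.

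Rows reaching 1 FPKM in at least the number of columns of the smallest group were tested on log2(FPKM + 0.5), a scale that understates changes of low genes, with limma 3.58.1 (lmFit, eBayes with a trend) in R 4.3.3. P-values were adjusted over all rows by the Benjamini-Hochberg method, and values under 0.05 were called. The 8 stages, the 3 times, KD-1cell with Ctrl, and the 4 MT2Mm groups were each fitted together. The method was tested on simulated data. Groups without overlap are given as a description, and their share over all rows was not counted. Members, lists and rules were chosen with earlier results of these data known. All members are named, and from each list up to 3 called genes with the largest change, groups that do not overlap and a mean of 5 FPKM or more in the higher one. Alternatives were a pseudocount of 0.1 or 1 FPKM, all rows without the filter, columns scaled by the median of ratios or by coding sums, the replicate number as a block, the 2 groups alone, columns of a shared tag, KD-2cell as a further group and each replicate left out; models of all stages without zygote replicate 1 were added after the data were seen. Identifiers were matched to GENCODE M21 (54409 of 54446 found), copies with BLAST 2.17.0, and figures made with Python 3.11.15, NumPy 2.4.6, pandas 2.3.3 and Matplotlib 3.10.9.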

Additional observations from a re-analysis of the deposited data

Results flagged for a closer look

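The effect of the MT2Mm knockout differed between stages for 5 members, by the interaction term of the limma model. The effect at Early2c minus that at Late1c was 0.928 for Ncl, 0.838 for Dkc1, 0.785 for Npm2, 0.729 for Nop56 and 0.485 for Npm1 on the log2 scale, with adjusted p between 1.1e-05 and 0.00024. Each of these genes was higher in 3 of 3 Early2c ko samples than in any Early2c ctrl sample. How many of all rows had no overlap was not counted, so that separation is a description only. Of all rows 37.3% had such a difference, and the middle row had 0.13. Of the 20 sets of 4 samples in the knockdown experiment, none had a sample far from the other 3.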

How the results depend on the processing

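Of the 170 member changes in 17 comparisons 72 were called. Of these 71 were kept and 1 was lost with a pseudocount of 0.1 FPKM, 71 and 1 with 1 FPKM, 68 and 4 with no filter, 69 and 3 with the median of ratios, and 66 and 6 with equal coding sums. The models of 2 groups alone kept 56 and lost 5, and the columns of a shared tag kept 4 and lost 2. With KD-2cell as a further group 5 were kept and 0 lost, and over all models with 1 column left out 383 were kept and 30 lost. The steps around the zygote and those of small change moved most. For zygote against MII the count of called members was 1, and it was 0 with a pseudocount of 1 FPKM, with the median of ratios, with equal coding sums, with the replicate block and with the 2 groups alone, 2 with columns of a shared tag, and 0 to 7 when 1 column was left out. For E2-cell against zygote it was 5, and 3 with equal coding sums, 2 with the replicate block, 1 with the 2 groups alone and 3 to 7 when 1 column was left out. For 8-cell against 4-cell it was 1, and 0 with no filter, 5 with the 2 groups alone and 0 to 4 when 1 column was left out. For morula against 8-cell it was 0, and 8 with the 2 groups alone and 0 to 5 when 1 column was left out. For 20 against 17 hours it was 3, and 1 with no filter and 1 to 2 when 1 column was left out. At E2-cell against zygote, leaving out zygote replicate 1 or zygote replicate 2 gave changes of -0.94 or 3.36 for Npm2, -1.07 or 2.46 for Nop56 and -0.71 or 0.38 for Dkc1; the columns of a shared tag are those without replicate 2 and also gave 0.38 for Dkc1. At Early2c ctrl against Late1c ctrl Npm1 changed sign, at 0.16 with the median of ratios and 0.13 with equal coding sums, and there these scalings moved the middle row by 0.18 and 0.16. For the 2 groups alone fewer rows and columns enter the model. Fbl did not pass the filter in the model of zygote and MII columns alone, so it was not tested there. For the other settings the cause was not tested.

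Counts over all rows moved by more than 1.5 times in 8 comparisons. At Late1c ko against ctrl 15 rows were called, and 0 to 44 over all settings. At zygote against MII 740 were called, and 449 with a pseudocount of 0.1 FPKM, 5 with the replicate block, 1 with the 2 groups alone, 1118 with columns of a shared tag and 389 to 5244 when 1 column was left out. At E2-cell against zygote 8685 were called, and 5615 with the replicate block and 4030 with the 2 groups alone. At 17 against 14 hours 4752 were called, and 2898 with no filter and as few as 2507 when 1 column was left out. At 20 against 17 hours 2521 were called, and as few as 854 when 1 column was left out, at 20 against 14 hours 5025 and 3239, at 8-cell against 4-cell 6885 and 4395, and at morula against 8-cell 4111 and 2456.

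The replicate numbers were not used to pair samples. Residuals of same-numbered columns correlated between -0.089 and 0.089 in the stages and between -0.14 and 0.15 in the MT2Mm groups, and no label ties a number to a litter or day. A model with the number as a block could be made for the stages up to L2-cell and for the MT2Mm groups; there 31 calls were kept and 5 lost: Fbl at zygote against MII, Npm1, Ncl and Nop10 at E2-cell against zygote and Npm1 at L2-cell against E2-cell. The later stages, times and LncR-3363 columns carry no sample's number. FPKM give no depth, so low values such as those of Fbl and Ubtf before L2-cell carry an unknown counting error. Models that leave out a column of a pair take the lone column to vary like the other groups.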
